A study of Mus musculus with 22 samples.

Results

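The bone morphogenetic protein (BMP) ligands Bmp2, Bmp4 and Bmp6, the secreted BMP antagonists Grem1, Nog and Chrd, and the BMP target genes Id1, Id2 and Id3 were described in mouse embryonic fibroblasts (MEFs). These 9 genes were read by 11 probe sets, groups of probes designed against a transcript, out of 45037 probe sets and 18193 annotated genes on the array. Every probe set that the platform annotation gives to 1 of these genes alone was used, which left 1 probe set per gene and 3 for Id2. Bmp2 was chosen by its measured rise in the arrays with the mutant oncogene. Its values in the comparisons that hold this rise are therefore given as a description, with no test.

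RNA was taken 7 days after adenoviral infection and hybridised to 22 Affymetrix mouse arrays. The 7 double arrays held MEFs in which Cre virus both switched on a mutant oncogene and deleted Wt1, a zinc finger transcription factor. The 5 oncogene arrays held MEFs with the oncogene switched on by the Cre virus. The 5 Wt1-null arrays held Wt1f/f MEFs given the Cre virus. The 5 control arrays held MEFs labelled wild type and given a virus with green fluorescent protein (GFP). The 3 altered groups were all given Cre and the control was given GFP, so allele and virus cannot be told apart in any comparison with the control. The comparisons of double with oncogene and of double with Wt1-null are among Cre-treated cells. The accession numbers form 3 sets, treated as possible batches. All 7 double arrays lie in 1 set and all 5 Wt1-null arrays lie outside it. Allele and accession set therefore cannot be told apart from the double and Wt1-null arrays alone. The labels name neither the strain nor the number of embryos behind a group, so the p-values reflect only how far these arrays differ from one another, whatever the source of that spread, technical sources included. All levels are log2 values after robust multi-array averaging (RMA), and a difference of 1 is a doubling. Levels of different probe sets were not set against each other.

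BMPs are secreted ligands of the TGF-beta superfamily that bring together type I and type II serine/threonine kinase receptors, which phosphorylate SMAD1, SMAD5 and SMAD8. Antagonists such as gremlin, noggin and chordin bind the ligands outside the cell and keep them from the receptors. The Id genes encode helix-loop-helix proteins with no DNA-binding domain, which pair with E proteins and hold them off DNA, and they are direct transcriptional targets of the BMP SMADs in many mesenchymal cells.

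The 250 bases before the transcription start of 4 members are shown because Bmp4 correlated with Id2 and Id3 between arrays of a group, and Grem1 correlated inversely with Id3. They come from RefSeq on build GRCm38.p6, run 5′ to 3′ on the gene's strand, and carry in capitals the 1 motif that was found, GGCGCC, a site bound by SMAD proteins.
Bmp4, chr14:46390670-46390919, minus strand: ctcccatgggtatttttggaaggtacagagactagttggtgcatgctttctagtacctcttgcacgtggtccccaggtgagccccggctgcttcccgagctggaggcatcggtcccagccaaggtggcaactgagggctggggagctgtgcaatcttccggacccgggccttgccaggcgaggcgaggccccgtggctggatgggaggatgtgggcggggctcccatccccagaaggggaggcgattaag
Grem1, chr2:113758649-113758898, minus strand: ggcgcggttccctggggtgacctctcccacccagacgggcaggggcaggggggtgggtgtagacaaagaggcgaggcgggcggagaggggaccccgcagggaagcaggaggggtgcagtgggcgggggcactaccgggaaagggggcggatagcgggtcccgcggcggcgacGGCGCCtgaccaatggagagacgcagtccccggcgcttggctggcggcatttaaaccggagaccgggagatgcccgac
Id2, chr12:25096093-25096342, minus strand: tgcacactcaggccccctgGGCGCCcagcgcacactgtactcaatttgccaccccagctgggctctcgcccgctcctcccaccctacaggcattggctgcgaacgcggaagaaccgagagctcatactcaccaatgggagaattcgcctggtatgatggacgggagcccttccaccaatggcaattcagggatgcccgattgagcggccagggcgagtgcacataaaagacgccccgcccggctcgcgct
Id3, chr4:136143572-136143821, plus strand: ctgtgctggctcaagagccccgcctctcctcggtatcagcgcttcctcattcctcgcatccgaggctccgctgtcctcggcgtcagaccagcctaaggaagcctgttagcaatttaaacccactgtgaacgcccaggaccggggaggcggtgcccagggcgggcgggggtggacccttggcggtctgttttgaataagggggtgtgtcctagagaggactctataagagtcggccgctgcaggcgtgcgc
Promoter windows of 6 of the 9 members were matched, those of Bmp4, Bmp6, Grem1, Chrd, Id2 and Id3. Both strands were searched for GGCGCC and GTCTAGAC (SMAD sites), GCGGGGGCG (EGR), TGACGTCA (CRE), TGAGTCA (AP-1) and CAGATG (an E-box), in windows reaching 50 bases past the start. GGCGCC stood once in Id2, from base -231 to -226 relative to the start, once in Grem1, from -78 to -73, and once in Chrd, from -203 to -198. The same letters occur in 11.9% of 32851 promoter windows of that length. The 250 bases before the start were 62.8% (Id2), 72% (Grem1) and 78% (Chrd) G or C. The share over all windows was not matched for this, so no enrichment can be read from it. The Bmp4 and Id3 windows held none of the 6 motifs.

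Some arrays bear on several results. Wt1-null replicate 2 differed from double replicate 2 by an SD of only 0.15 over all probe sets, less than any other pair of arrays, within a group or across groups, so the Wt1-null values of the members described at length are also given without it. Wt1-null replicates 3 and 4 were nearly as alike, with an SD of 0.16. Double replicate 4 and oncogene replicate 4 correlated least with the other arrays (mean r of 0.940 and 0.963). The 8 fibroblast markers read 13.3 on average in double, 13.4 in oncogene, 13.0 in Wt1-null and 13.0 in control arrays, and the lists for epithelium, endothelium, macrophages, cartilage, muscle and fat had group means of 5.67 to 7.93. Xist was high in 5 of 7 double, 0 of 5 oncogene, 2 of 5 Wt1-null and 2 of 5 control arrays, so the sex of the cells was not balanced, and its part in the results was not tested. Wt1 itself had group means of 4.45 in the double, 4.59 in the oncogene, 4.47 in the Wt1-null and 4.38 in the control arrays. Genes of the Y chromosome, read in arrays with high Xist, set the background at 3.65 to 5.06, and as Wt1 lay inside it, it gives no check of the deletion.

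Bmp2, an osteogenic and chondrogenic ligand, was high wherever the oncogene was switched on. In the double arrays Bmp2 had a lowest level of 8.06, a median of 10.71 and a highest of 12.32. It read 10.34, 9.16, 12.43, 11.24 and 10.81 in oncogene replicates 1, 3, 4, 5 and 6. Wt1-null replicates 1 to 5 gave 6.62, 10.90, 6.53, 6.71 and 7.46, and control replicates 1 to 5 gave 6.63, 6.01, 6.86, 6.54 and 7.81. Every double and oncogene array thus lay above every control array, with double replicate 4 closest to them. The Wt1-null arrays lay in the control range, apart from replicate 2, which read like an oncogene array.

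Mean Bmp2 was 10.71 ± 1.34 (SD, n = 7) in double arrays and 10.79 ± 1.20 (SD, n = 5) in oncogene arrays. It was 7.64 ± 1.86 (SD, n = 5) in Wt1-null arrays, or 6.83 ± 0.43 (SD, n = 4) without replicate 2, and 6.77 ± 0.66 (SD, n = 5) in control arrays. The oncogene arrays stood 4.02 ± 0.79 (SE) above the control, a 16.3-fold difference, and the double arrays stood 3.94 ± 0.74 (SE) above it, or 15.4-fold. Double over Wt1-null came to 3.07 ± 0.74 (SE), or 8.40-fold, and to 3.88 ± 0.62 (SE), or 14.8-fold, without Wt1-null replicate 2. These differences describe the choice of the gene.

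Loss of Wt1 on its own gave no called change of Bmp2. Tests were made with limma over all probe sets, and a change was called at a Benjamini-Hochberg adjusted p below 0.05. Wt1-null arrays were 0.87 ± 0.79 (SE) above control, with an adjusted p of 0.71 in limma, and 0.06 ± 0.66 (SE) above it without replicate 2, with an adjusted p of 0.99. Between double and oncogene arrays the difference was -0.08 ± 0.74 (SE), with a 95% interval from -1.61 to 1.45 and a limma adjusted p of 0.9999. The interval still allows a severalfold difference in either direction. The interaction, which takes the oncogene minus control difference away from the double minus Wt1-null difference, was -0.95 ± 1.08 (SE) for Bmp2 and is likewise a description, since it holds the contrast by which the gene was picked. Without Wt1-null replicate 2 it was -0.14 ± 0.88 (SE).

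Some cell type markers stood higher in double and oncogene arrays than in control arrays, while most did not. Of the 33 measured markers of 8 lists, 6 had means in both double and oncogene arrays more than 0.5 above control and 0 had means more than 0.5 below it, a limit chosen after the values were seen. In the order double, oncogene, Wt1-null and control, the group means were 5.74, 5.53, 4.44 and 3.97 for Dmp1, a matrix protein of osteocytes, 7.56, 6.77, 6.73 and 5.92 for the epithelial keratin gene Krt18, and 6.80, 6.80, 6.07 and 5.51 for the endothelial receptor gene Tek. They were 6.85, 6.58, 6.24 and 6.05 for Cd68 of macrophages, 12.23, 12.41, 10.55 and 10.44 for the fibroblast receptor gene Pdgfra, and 11.58, 11.60, 10.62 and 10.47 for decorin, Dcn. Krt18 was nearly as high in Wt1-null as in oncogene arrays, so it did not follow the groups of Bmp2. Some other markers of these lists stayed within the background in all groups. They were Ibsp of bone (4.43 to 4.60), Cdh1 of epithelium (3.92 to 4.07), Pecam1 of endothelium (4.59 to 4.69) and Ptprc of blood cells (4.44 to 4.67). Others of the same lists read above it in all groups. They were Sp7 (6.23 to 6.57), Epcam (8.36 to 8.47), Krt8 (6.48 to 6.90), Kdr (7.07 to 7.23), Cdh5 (5.31 to 5.41) and Csf1r (7.25 to 7.37). Of the fibroblast list, Col1a2 (14.64 to 14.82), Col3a1 (14.28 to 14.50), Vim (14.82 to 14.86), Pdgfrb (11.44 to 11.87) and Thy1 (13.08 to 13.37) did not pass the limit. Col1a1 was lower in double (13.90) and oncogene (14.23) than in control arrays (14.50). Fabp4 of fat was likewise lower, at 9.78 and 10.15 against 10.52. The bone list, 3 of its 4 genes measured, averaged 5.52 in double (5.16 to 6.06 over arrays), 5.47 in oncogene (5.24 to 5.71), 5.20 in Wt1-null (5.07 to 5.54) and 4.88 in control arrays (4.82 to 4.93), while its gene Sp7 was highest in Wt1-null arrays, at 6.57. The part of other cell types in the Bmp2 result was not tested, and in RNA from whole cultures fewer cells of a type and less RNA per cell cannot be told apart.

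**Figure D1:**
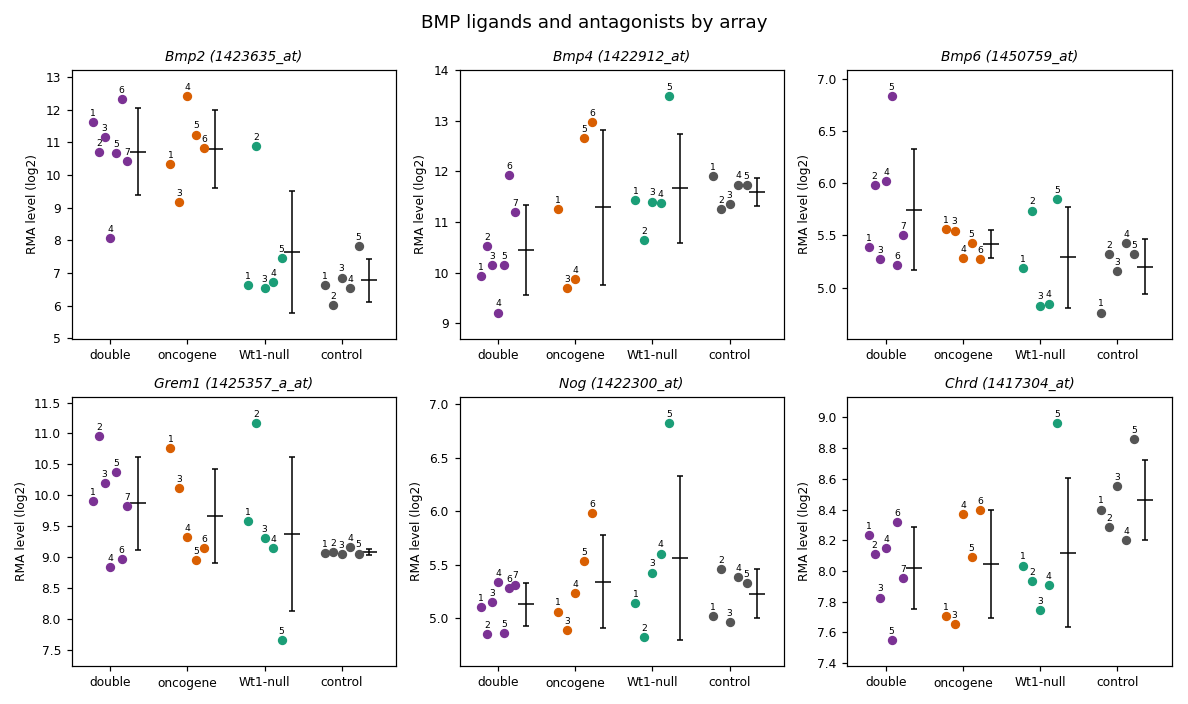
RMA levels (log2, y axis of its own per panel) of the 3 ligands and 3 antagonists in the double, oncogene, Wt1-null and control arrays. Each point is 1 array with its replicate number, and the bar beside each group is the mean ± SD (n = 7, 5, 5 and 5); Bmp2 separates the double and oncogene arrays from the control arrays, and Wt1-null replicate 2 sits at 10.90.

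Bmp4, a close relative of Bmp2 that patterns mesoderm, showed no such rise. In double arrays Bmp4 had a lowest level of 9.21, a median of 10.16 and a highest of 11.93. Oncogene replicates 1, 3, 4, 5 and 6 read 11.26, 9.69, 9.87, 12.67 and 12.98, and Wt1-null replicates 1 to 5 read 11.43, 10.64, 11.41, 11.37 and 13.50. Control replicates 1 to 5 read 11.91, 11.25, 11.36, 11.74 and 11.74. The control arrays were tightly grouped, the oncogene arrays fell on both sides of them, and 6 of the 7 double arrays and 1 Wt1-null array lay below all of them.

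Mean Bmp4 was 10.45 ± 0.89 (SD, n = 7) for double arrays, 11.29 ± 1.53 (SD, n = 5) for oncogene arrays, 11.67 ± 1.07 (SD, n = 5) for Wt1-null arrays and 11.60 ± 0.28 (SD, n = 5) for control arrays. The Wt1-null mean was 11.93 ± 1.05 (SD, n = 4) without replicate 2. Double arrays were 1.15 log2 units under control (change -1.15 ± 0.57, SE), with an unadjusted p of 0.055 and an adjusted p of 0.29 in limma. The change against Wt1-null was -1.22 ± 0.57 (SE), with a limma p of 0.043 and an adjusted p of 0.37. Without Wt1-null replicate 2 that change was -1.48 ± 0.60 (SE), with a limma adjusted p of 0.20. Double minus oncogene came to -0.85 ± 0.57 (SE) and oncogene minus control to -0.31 ± 0.61 (SE). None of these passed the threshold.

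Bmp6, a ligand best known from iron regulation in liver and from bone, read close to background. Its double arrays ran from 5.22 through a median of 5.51 to 6.84, with replicate 5 highest. The oncogene arrays lay between 5.28 and 5.56, the Wt1-null arrays between 4.83 and 5.85 and the control arrays between 4.76 and 5.43, so all groups overlapped. Double exceeded control by 0.55 ± 0.24 (SE), with a limma p of 0.032 and an adjusted p of 0.22.

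Of the antagonists, Grem1, which codes for gremlin, an inhibitor of BMP2 and BMP4, stood out by its spread. The double arrays ran from 8.83 through a median of 9.90 to 10.96. Oncogene replicates 1, 3, 4, 5 and 6 read 10.76, 10.12, 9.33, 8.96 and 9.14. Wt1-null replicates 1 to 5 read 9.58, 11.17, 9.30, 9.14 and 7.66, and all 5 control replicates lay between 9.05 and 9.16. In each Cre group some arrays were above the whole control range and at least 1 was below it.

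Mean Grem1 was 9.87 ± 0.76 (SD, n = 7) for double arrays, 9.66 ± 0.76 (SD, n = 5) for oncogene arrays, 9.37 ± 1.25 (SD, n = 5) for Wt1-null arrays (8.92 ± 0.86 without replicate 2) and 9.08 ± 0.04 (SD, n = 5) for control arrays. Double arrays averaged 0.78 ± 0.45 (SE) over control, with an adjusted p of 0.39 in limma, and oncogene arrays 0.58 ± 0.49 (SE) over control, with an adjusted p of 0.66. Against Wt1-null the double arrays differed by 0.50 ± 0.45 (SE), or by 0.95 ± 0.40 (SE) without Wt1-null replicate 2, the highest Grem1 array of all, with a limma p of 0.030 and an adjusted p of 0.23. The Wt1-null difference from control was 0.29 ± 0.49 (SE) and turned to -0.16 ± 0.43 (SE) without that array. Neither value was called.

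Chrd, which codes for chordin, was a little lower in each Cre group than in control, but below the threshold. Its double arrays ran from 7.55 through a median of 8.11 to 8.32. Oncogene arrays read 7.71, 7.65, 8.37, 8.09 and 8.40, and Wt1-null arrays 8.04, 7.94, 7.75, 7.91 and 8.96. Control arrays read 8.40, 8.29, 8.56, 8.20 and 8.86. Each Cre group overlapped the control range, although 5 of 7 double arrays lay below every control array. The change against control was -0.44 ± 0.19 (SE) in double, with a limma p of 0.033 and an adjusted p of 0.23. It was -0.42 ± 0.21 (SE) in oncogene, with a limma p of 0.059 and an adjusted p of 0.39, and -0.34 ± 0.21 (SE) in Wt1-null arrays, with an adjusted p of 0.55, or -0.30 ± 0.22 (SE) without replicate 2. Nog, which codes for noggin, averaged 5.13 in double, 5.34 in oncogene, 5.57 in Wt1-null (5.75 without replicate 2) and 5.23 in control arrays, close to background, and its highest array was Wt1-null replicate 5 at 6.83.

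Id1, Id2 and Id3 showed no called change in any comparison. Id1 had a lowest level of 10.82, a median of 11.44 and a highest of 12.67 in double arrays. Oncogene replicates 1, 3, 4, 5 and 6 read 11.19, 11.28, 11.64, 12.37 and 12.80, Wt1-null replicates 1 to 5 read 10.66, 11.07, 11.64, 11.57 and 12.42, and control replicates 1 to 5 read 10.85, 10.36, 10.84, 11.34 and 11.29. Control arrays were the lowest as a group, yet each Cre group overlapped them. Mean Id1 was 11.57 ± 0.71 (SD, n = 7) for double arrays, 11.86 ± 0.70 (SD, n = 5) for oncogene arrays, 11.47 ± 0.66 (SD, n = 5) for Wt1-null arrays and 10.94 ± 0.40 (SD, n = 5) for control arrays.

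The oncogene arrays exceeded control in Id1 by 0.92 ± 0.38 (SE), a 1.89-fold difference with a 95% interval of 0.12 to 1.72 on the log2 scale. The limma p was 0.026 and the adjusted p 0.28, and the adjusted p ran from 0.0518 to 0.524 over 34 alternative analyses. Double over control was 0.63 ± 0.36 (SE), with an adjusted p of 0.38, and Wt1-null over control 0.54 ± 0.38 (SE), with an adjusted p of 0.62, or 0.64 ± 0.41 (SE) without Wt1-null replicate 2, with an adjusted p of 0.61. Double minus oncogene was -0.29 ± 0.36 (SE). The 16.3-fold difference in Bmp2 between oncogene and control arrays is the one that gene was picked by. It was not tested against the Id1 change, whose interval reaches past 2-fold.

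Id2 was read by 3 probe sets. Probe set 1435176_a_at ran from 9.51 through 10.71 to 12.36 in double arrays, from 10.24 to 11.98 in oncogene arrays, from 10.10 to 12.09 in Wt1-null arrays and from 9.67 to 11.63 in control arrays. The groups overlapped almost fully, and 4.40% of its variance lay between them, where the median over all probe sets was 16.6%. Probe set 1422537_a_at followed it (r = 0.940 over 22 arrays, a description), with 1.61% of its variance between groups. Probe set 1453596_at read close to background, between 4.57 and 6.90, and followed the others less closely (r of 0.623 and 0.648). Oncogene minus control came to 0.45 ± 0.53, 0.17 ± 0.55 and 0.37 ± 0.38 (SE) for the 3 probe sets, none of them called.

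Id3 was the least variable of the Id genes. Its double arrays ran from 11.92 through 12.36 to 13.18, the oncogene arrays from 12.18 to 13.24, the Wt1-null arrays from 12.31 to 13.40 and the control arrays from 11.88 to 12.55. Oncogene exceeded control by 0.34 ± 0.26 (SE), double exceeded it by 0.22 ± 0.25 (SE) and Wt1-null by 0.29 ± 0.26 (SE), with limma adjusted p-values of 0.62, 0.70 and 0.71. The Wt1-null difference was 0.35 ± 0.28 (SE) without replicate 2. Its 95% interval for double minus oncogene, -0.63 to 0.39, stays within 1 log2 unit of 0 on either side.

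**Figure D2:**
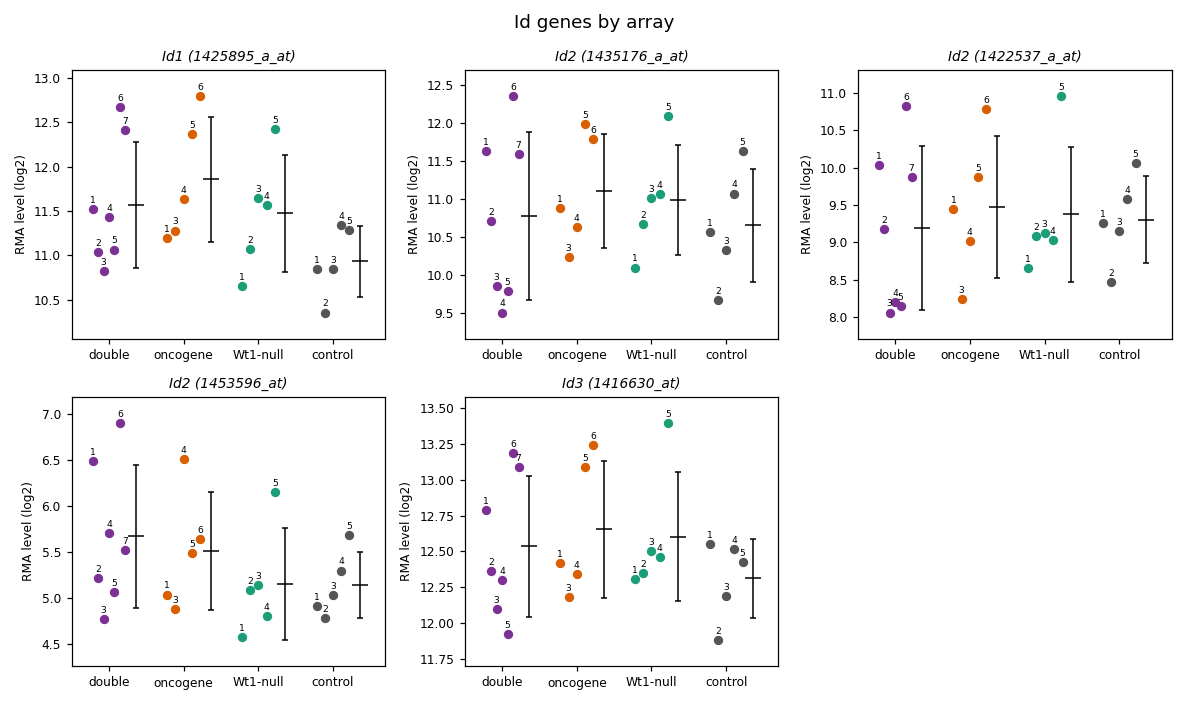
RMA levels (log2, y axis of its own per panel) of the 5 Id probe sets in the double, oncogene, Wt1-null and control arrays. Each point is 1 array with its replicate number, and bars give the mean ± SD (n = 7, 5, 5 and 5). The groups overlap in every panel. Double 6, oncogene 5 and 6 and Wt1-null 5 are near the top in Id1, Id2 1435176_a_at and Id3, and double 7 in Id1 and Id3.

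Over the members as a set, limma called none in any comparison once Bmp2 was left out of the contrasts that hold its rise. In oncogene against control 0 of 10 probe sets were called, where 1.07% of all probe sets were, and Id1 alone had an unadjusted p below 0.05. In double against control it was 0 of 10 beside a background of 4.01%, with Bmp6 above and Chrd below at an unadjusted p under 0.05. In double against Wt1-null it was 0 of 10 beside 0.00666%, with Bmp4 below at an unadjusted p under 0.05. Without Wt1-null replicate 2 the count in that comparison was again 0 of 10, although 3.77% of all probe sets were then called. There 2 members above (Bmp6 and Grem1) and 2 below (Bmp4 and Nog) had an unadjusted p under 0.05. In the same order, 13.5%, 17.8%, 13% and 16.7% of all probe sets had an unadjusted limma p below 0.05.

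The remaining comparisons had almost no calls anywhere. In Wt1-null against control 0 of 11 member probe sets were called beside 0.0422% of all, or 0.02% without replicate 2, in double against oncogene 0 of 11 beside 0%, and in the interaction 0 of 10 beside 0.00888%. No member had an unadjusted p below 0.05 in these 3 comparisons, where 11.0%, 3.52% and 7.52% of all probe sets did. In the interaction Nog had one once Wt1-null replicate 2 was left out (-0.73 ± 0.35, SE, with a limma p of 0.048 and an adjusted p of 0.56), as did 8.83% of all probe sets. Median member changes were 0.28 in oncogene against control, 0.17 in double against control and -0.08 in double against Wt1-null (-0.14 without Wt1-null replicate 2), beside medians of -0.02, -0.03 and 0.01 over all probe sets. The comparisons with control share the same 5 control arrays.

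**Figure D3:**
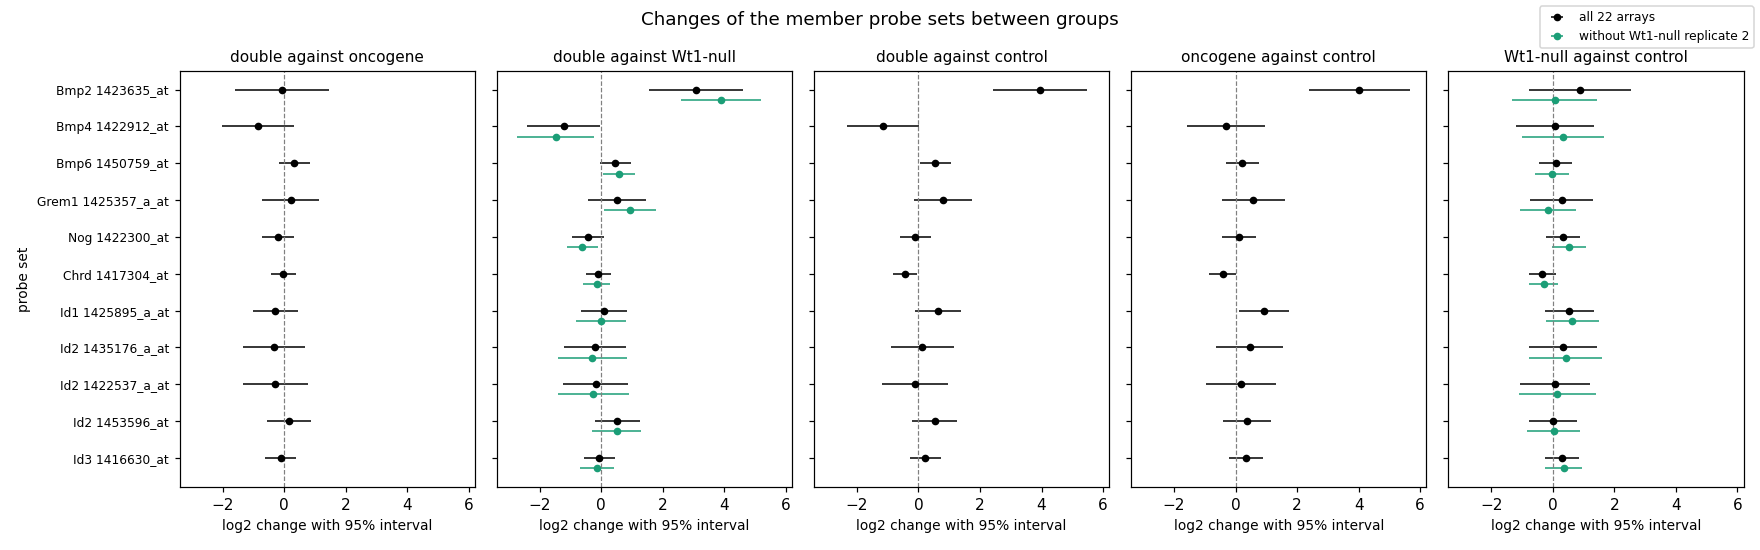
Log2 change (x axis) of each member probe set (rows) in 5 comparisons, first group minus second, with its 95% interval from limma; black is all 22 arrays and green leaves out Wt1-null replicate 2. Only Bmp2, which was chosen for it, lies 3 or more log2 units from 0, in the comparisons of double with Wt1-null and of double and oncogene with control.

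Within the groups, the levels of all 3 Id genes were correlated with that of Bmp4. Each array's level was taken relative to the mean of its own group, and the relation of each Id gene (for Id2, probe set 1435176_a_at) with Bmp2, Bmp4 and Grem1 was computed, 9 relations in all. Single arrays went against the relation, among them double replicate 4, which had the lowest Bmp4 of all arrays (9.21) and the median Id1 of its group (11.44). The relations were looked at after the values had been seen. Bmp4 correlated with Id3 at r = 0.834 and rho = 0.773, with Id2 at r = 0.750 and rho = 0.693, and with Id1 at r = 0.749 and rho = 0.643 (22 arrays, 100000 permutations within groups). The adjusted two-sided permutation p-values of r were 0.000585, 0.000585 and 0.00243, and those of rho 0.00423, 0.00423 and 0.0126. Without the 2 arrays farthest in Bmp4, Wt1-null replicate 5 and oncogene replicate 6, r was 0.756 for Id3, 0.718 for Id2 and 0.643 for Id1.

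Wt1-null replicate 5, oncogene replicates 5 and 6 and double replicate 6 carried high levels of Bmp4 and of all 3 Id genes at once. Of these, oncogene replicates 5 and 6 and double replicate 6 were also among the most alike arrays over all probe sets. Their pairs differed by an SD of 0.264, 0.285 and 0.308, and the permutations treated them as separate arrays. Wt1-null replicate 5 held the highest Bmp4 (13.50) and Id3 (13.40) of all arrays, and oncogene replicate 6 the highest Id1 (12.80). Double replicate 6 held the highest Id2, at 12.36. Double replicate 7 was also high in Id1 (12.41) and Id3 (13.09). Its Bmp4, at 11.20, lay below every control array, although 0.75 above its group mean. In the 15 arrays whose accession numbers form the one set that holds all the double arrays, r with Bmp4 was 0.804 for Id3, 0.749 for Id2 and 0.778 for Id1. Without Wt1-null replicates 2 and 4, each nearly alike to another array, r was 0.830, 0.764 and 0.751 over 20 arrays.

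Grem1 was inversely correlated with Id1 and Id3, while its relation with Id2 did not pass the threshold. Its r was -0.665 with Id1 (rho = -0.719), -0.591 with Id3 (rho = -0.618) and -0.395 with Id2 (rho = -0.426), with adjusted permutation p-values of r of 0.00801, 0.0273 and 0.112, and of rho of 0.00528, 0.0172 and 0.1. The arrays highest in Grem1 thus tended to be low in Id1 and Id3. Without Wt1-null replicates 2 and 5, which had the highest and the lowest Grem1, r was -0.647, -0.498 and -0.309. Within the accession set of 15 arrays it was -0.607, -0.505 and -0.303. Bmp6 and the other antagonists, Nog and Chrd, were not among the 9 relations. Nog and Chrd both read highest in Wt1-null replicate 5 (6.83 and 8.96), the array with the lowest Grem1 and the highest Id3 (13.40). The relations of Grem1 therefore do not stand for the antagonists as a class.

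For Bmp2 no relation with an Id gene passed the threshold, and whether its r differs from that of Bmp4 was not tested. It had r of 0.159 for Id1, 0.400 for Id2 and 0.196 for Id3 and adjusted permutation p-values of 0.537, 0.112 and 0.494. The rho values of Bmp2 were 0.219, 0.347 and 0.199, with adjusted permutation p-values of 0.409, 0.161 and 0.409. Without Wt1-null replicate 2 and double replicate 4, the 2 arrays farthest in Bmp2, its r was 0.336, 0.468 and 0.330. Each value was thus higher without these arrays, and Id2 remained the Id gene with the highest r. For Bmp2 and Id2, r was 0.606 over 20 arrays without Wt1-null replicates 2 and 4. Bmp2 had r of 0.312, 0.602 and 0.356 in the accession set of 15 arrays. When levels were not taken relative to group means, r with Id1, Id2 and Id3 was 0.415, 0.287 and 0.263 for Bmp2. It was then 0.483, 0.663 and 0.670 for Bmp4 and -0.395, -0.334 and -0.451 for Grem1, all as a description. Among themselves the Id genes correlated at 0.852 (Id1 with Id2), 0.911 (Id1 with Id3) and 0.897 (Id2 with Id3) within groups, as a description.

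**Figure D4:**
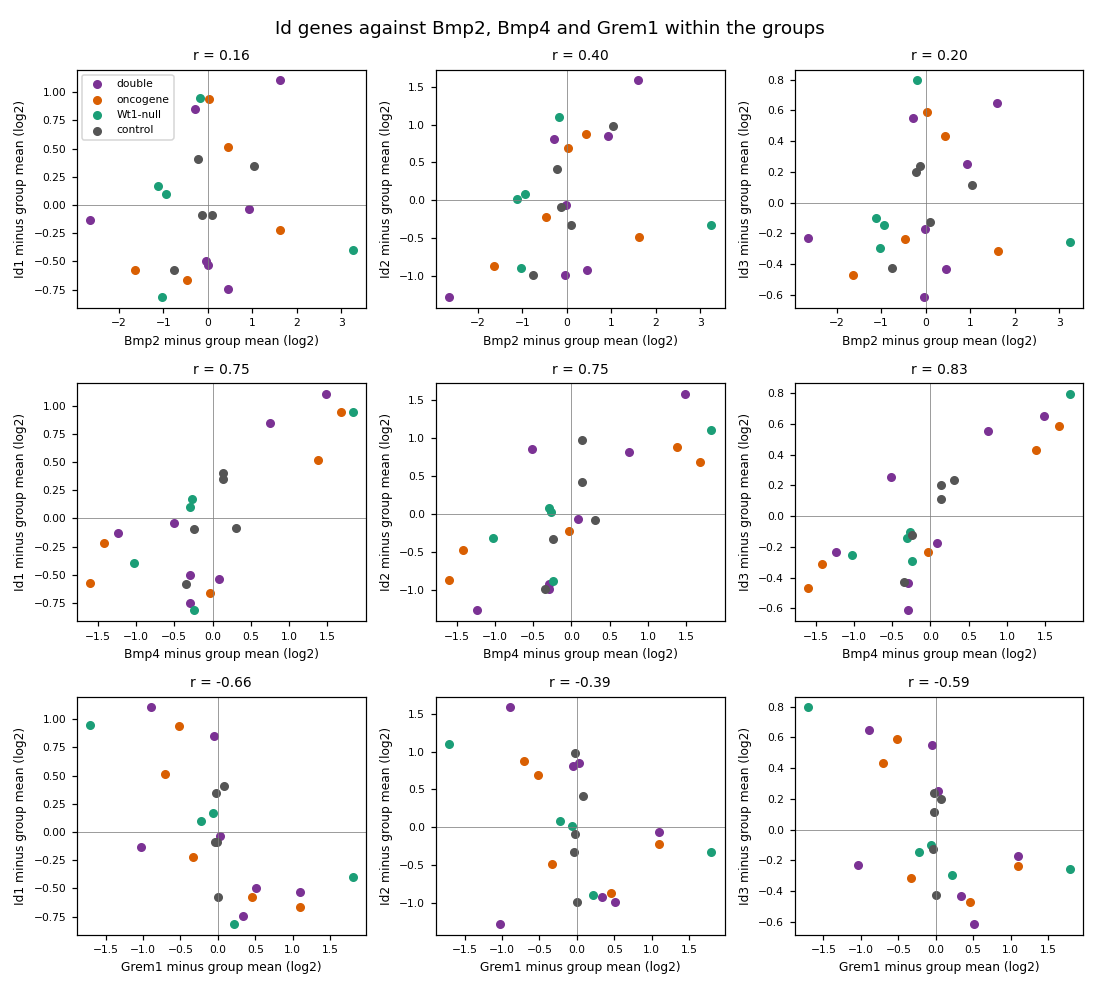
Level of Id1, Id2 (1435176_a_at) and Id3 (columns, y axes) against Bmp2, Bmp4 and Grem1 (rows, x axes), each as log2 difference from the mean of the array's group; points are the 22 arrays coloured by group, and r is Pearson's. The Bmp4 row slopes upward, the Grem1 row downward, and the Bmp2 row shows no clear slope for Id1 and Id3.

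The rest of the BMP pathway was read from lists of 57 genes, 51 of them measured, each taken at its brightest probe set. In oncogene against control 1 of 51 was called, the type II receptor gene Acvr2a, which was lower, by -0.69 ± 0.16 (SE), with a limma adjusted p of 0.0435, beside 1.07% of all probe sets called. That call was kept in 16 of 34 alternative analyses, and it was lost when any 1 control array, oncogene replicate 3, 4, 5 or 6, Wt1-null replicate 1, 3 or 4 or double replicate 7 was left out. Acvr2a averaged 8.50 in double, 8.43 in oncogene, 8.56 in Wt1-null and 9.11 in control arrays, so it was lower in each Cre group. Its Wt1-null minus control change of -0.55 ± 0.16 (SE) was not called (limma adjusted p of 0.264). The other Acvr2a probe set, at -0.25 in oncogene against control, was not called. Without Wt1-null replicate 2, Smad5, a signal-carrying SMAD, was also called, higher by 0.72 ± 0.17 (SE), and Fstl3, a follistatin-like inhibitor of activins and some BMPs, was called lower by -0.92 ± 0.23 (SE), with limma adjusted p-values of 0.0369 and 0.0410, which made 3 of 51 beside 1.64% of all probe sets. The other 2 Smad5 probe sets, at 0.29 and 0.03 over all arrays, were not called. In double against control 3 of the 51 genes rose and 1 fell, beside 4.01% of all probe sets called. Rgmb, a co-receptor that binds BMPs at the membrane, had a mean of 8.82 in double and 7.05 in control arrays. That change of 1.77 ± 0.36 (SE) had a limma adjusted p of 0.0082 and kept its call in all 34 alternatives. Rgmb averaged 8.37 in oncogene and 7.72 in Wt1-null arrays. Its oncogene minus control change of 1.33 ± 0.39 (SE) was not called (limma adjusted p of 0.104).

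A further 3 Rgmb probe sets were called higher in double against control, by 1.88 (1433587_at), 1.17 (1428430_at) and 1.02 (1428429_at), while 1442811_at and 1459366_at, at 1.004 and 0.44, were not. Gata3, a transcription factor induced by BMPs in several tissues, averaged 7.69 in double and 6.58 in control arrays. That change was 1.11 ± 0.27 (SE), with a limma adjusted p of 0.0213. Gata3 averaged 7.65 in oncogene and 7.15 in Wt1-null arrays. Its oncogene minus control change of 1.07 ± 0.29 (SE) was not called (limma adjusted p of 0.0743). Bmp5, a further ligand, averaged 6.74 in double, 6.06 in oncogene, 6.16 in Wt1-null and 5.76 in control arrays. Its double minus control change was 0.98 ± 0.26 (SE), with a limma adjusted p of 0.0372. The 2 other Bmp5 probe sets moved by 0.24 and 0.35 without a call. Acvr2a was lower by -0.62 ± 0.15 (SE), with a limma adjusted p of 0.0243, and its other probe set, at -0.19, was not called. Gata3 kept its call in 31 of 34 alternatives, Acvr2a in 30 of 34 and Bmp5 in 21 of 33. Gata3 lost its call without control replicate 2, 3 or 4 and Acvr2a without control replicate 1 or 3. Bmp5 lost its call without control replicate 1, 2, 3 or 4 and without double replicate 2, 5, 6 or 7. Within the accession set of 15 arrays that holds all double arrays, Bmp5 had an adjusted p of 0.116 and Acvr2a one of 0.0541, and with the accession set as a fixed block Bmp5 had one of 0.0790 (limma). Bmp5 was also not called with only the 2 groups in the fit, with an adjusted p of 0.0986. With Wt1-null replicate 2 left out, 5 genes were called higher and 2 lower in double against control, beside 5.05% of all probe sets. The 3 added ones were Smad5 (0.58), Bmp1, a protease that cleaves chordin (0.93), and Fstl3 (-0.78). Over all arrays the other Smad5 probe sets read 0.20 and -0.19 in that comparison and the other Bmp1 probe sets 1.04 and -0.01, none of them called.

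None of the 51 genes was called in double against Wt1-null, Wt1-null against control, double against oncogene or the interaction. With Wt1-null replicate 2 left out, 2 of 51 were called in double against Wt1-null, beside 3.77% of all probe sets. Rgmb was higher in double than in Wt1-null arrays by 1.41 ± 0.34 (SE), with a limma adjusted p of 0.0250. Fstl3 was lower by -1.07 ± 0.22 (SE), with a limma adjusted p of 0.0107. Double and Wt1-null arrays share no accession set. Over the 51 genes the median change was 0.09 in oncogene against control and 0.09 in double against control, beside -0.02 and -0.03 over all probe sets.

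Of the further ligands the liver-derived Gdf2 (BMP9), and of the receptors the type I receptor gene Bmpr1a and the type II receptor gene Bmpr2 are described for context, taken by the brightness of their probe sets, which is no order of transcript abundance. None was called in any comparison. Bmpr1a averaged 10.79 in double, 10.98 in oncogene, 11.02 in Wt1-null and 10.80 in control arrays. Bmpr2 averaged 10.32 in double, 10.53 in oncogene, 10.78 in Wt1-null and 9.95 in control arrays, and Gdf2 7.16, 7.09, 7.04 and 7.17 in the same order. The inhibitory SMAD genes Smad6 and Smad7, which BMP signalling itself induces as feedback, were not called either. Smad6 averaged 9.33 in double, 9.88 in oncogene, 9.60 in Wt1-null and 9.71 in control arrays. Smad7 averaged 8.98 in double, 9.07 in oncogene, 9.50 in Wt1-null and 9.09 in control arrays.

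Likeness was measured as Pearson's r over the 22 arrays with 1 probe set for each of 16313 genes. The genes most like Bmp2 were Arrdc3 (r = 0.955), Npc2 (r = 0.954), Phex (r = 0.945), Gpr85 (r = 0.928) and Slc14a1 (r = 0.912). With the group means taken out these r values were 0.881, 0.850, 0.896, 0.837 and 0.720. The genes most like Id1 were Kirrel (r = 0.906), Id3 itself (r = 0.898), Apoe (r = 0.858), Csf1 (r = 0.832) and Egr1 (r = 0.815). With the group means taken out these were 0.882, 0.911, 0.853, 0.865 and 0.778, where Bmp4 had r of 0.749 with Id1. The genes most like Grem1 were Eda2r (r = 0.939), Zfp365 (r = 0.937), Trp53inp1 (r = 0.906), Arap2 (r = 0.906) and Pdcd4 (r = 0.905). With the group means taken out, the Grem1 values ran from 0.899 to 0.957.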

How the data were processed

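The values the authors deposited are log2 RMA values from Affymetrix Expression Console, per the submitters' processing notes and the design text of the series; the version is not given in the sources used here. RMA corrects background, gives every array the same distribution and reduces the probes of a set to 1 value. Differences near the floor are compressed by it, and a shift common to most transcripts would be lost. Array medians ran from 6.23 to 6.33. No detection calls were used here. Precision is limited by the number of arrays. The oncogene is not reported here by name. The design text gives the oncogene group 6 arrays, and 5 are used here.

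Of 45101 probe sets, 64 controls were left out, and a platform annotation gave 1 gene to 34945, several to 932 and none to 9160. The 4 group means were estimated from all 22 arrays by lmFit and eBayes of limma 3.58.1, run in R 4.3.3, with Benjamini-Hochberg adjustment over 45037 probe sets. The fit was tested on simulated arrays drawn independently of one another. They held neither nearly alike arrays nor differences between accession sets, so calls under those conditions were not checked. All 11 member probe sets were named. Of the pathway lists the called genes, the further ligand and the type I and type II receptors with the brightest probe set, Smad6 and Smad7 were named, and 5 genes each most like Bmp2, Id1 and Grem1. Members and lists were chosen with earlier results of these data known. Replicate numbers were not taken to pair the arrays. The alternatives covered the probe sets tested, scaling, variance model, array weights, samples in the fit, the replicate number and the accession set as blocks, and left-out arrays. The accession numbers form 3 sets, treated as possible batches. Leaving out Wt1-null replicate 2, the limit for markers and the array subsets of the correlations were added after seeing the data.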

Additional observations from a re-analysis of the deposited data

Results flagged for a closer look

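Within the groups of 5 and 7 arrays, 5 of 44 sets of values held 1 array far from the rest by Dixon's criterion. Chance alone gives about 1 in 20 independent sets. These sets share arrays and hold correlated genes, so no excess over chance can be read from the count. All were in the Wt1-null group. Bmp2 in Wt1-null replicate 2 read 10.90, while the nearest other Wt1-null array read 7.46. The other flags were all in Wt1-null replicate 5. There Bmp4 read 13.50 (nearest 11.43), Chrd 8.96 (nearest 8.04), Id2 probe set 1422537_a_at 10.96 (nearest 9.12) and Id3 13.40 (nearest 12.50).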

How the results depend on the processing

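Each change of a member larger than its SE was recomputed under up to 34 alternatives. Smaller changes were not entered, such as Grem1 in Wt1-null against control, which went from 0.29 to -0.16 without Wt1-null replicate 2. Leaving out an array of a group not compared cannot move the change itself, only its p. Of 888 values for 27 tested changes, 887 kept direction and side of the threshold, 1 passed it and 0 reversed. The 3 Bmp2 changes by which the gene was picked have no test, and their 101 values kept their sign. The exception was double against control with the replicate block, where 1 member was called against 0, Bmp4 at -1.62 with a limma adjusted p of 0.0352. Same-numbered arrays deviated together in 12 of 28 pairs (42.9% above r = 0.1), against 53 of 152 other pairs (34.9%). As the other 16 same-numbered pairs did not, and the labels give the numbers no meaning, they were not taken as pairs. Some same-numbered arrays were, however, among the most alike from different groups. Besides Wt1-null and double replicates 2, these were oncogene and double replicates 6 (SD of 0.285) and 3 (SD of 0.324). Oncogene replicate 5 and double replicate 6 (SD of 0.308) were about as alike and bear different numbers. Whether the numbers stand for a shared source was not tested. The block changed no other member call. It ended the calls of Bmp5 and Acvr2a in double against control (limma adjusted p of 0.0950 and 0.0614). The Bmp2 change ran from 3.62 to 4.43 in oncogene against control, from 3.67 to 4.39 in double against control and from 2.57 to 3.97 in double against Wt1-null.

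Counts over all probe sets moved much more. In oncogene against control 483 became 822 with the accession set as a fixed block, 1205 with only the groups compared, 5795 with array weights, 851 without both replicates 4, and 125 to 947 with 1 array left out. In double against control 1805 became 1078 with 1 probe set per gene, 1165 within 1 accession set, 10791 with array weights, 3279 without both replicates 4, and 832 to 3002 with 1 array left out. In double against Wt1-null 3 became 15 with 1 probe set per gene, 6 without dim probe sets, 18 with repeated quantile normalization, 13 with a trended variance and 4785 with array weights. It became 0 with only the groups compared, with either block, with Wt1-null replicates 3 and 4 averaged and without both replicates 4, and 0 to 1697 with 1 array left out. In Wt1-null against control 19 became 4 with that pair averaged, 3 with the accession set and 33 with the replicate block, 523 with only the groups compared, 8482 with array weights, 75 without both replicates 4, and 3 to 76 with 1 array left out. The interaction's 4 became 1121 with array weights, 0 with the replicate block and with 1 array left out 0 to 7. The cause of these moves was not tested. Accession set 3 holds no Wt1-null array, so it gave no value for comparisons with that group. Bmp6, Nog and Id2 probe set 1453596_at read close to background, which limits what their changes can show.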
